A study of Mus musculus with 18 samples.

Results

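The regions described here are 2893 places in the genome of mouse cardiomyocytes where G9a and Mef2c signal were both listed as lower after G9a deletion. All were free of overlap with any listed region of H3K9me2 or H3K27me3. They were chosen from 617784 listed G9a regions on chromosomes 1 to 19. Of these, 119463 overlapped a Mef2c region by at least 50% of the length of each, and 27190 of those overlapped no region of either histone mark. A pair was kept where, in both lists, both KO values lay below both Cre values and the ratio of (mean KO + 1) to (mean Cre + 1) was 0.5 or less. The measured values therefore chose the regions, and G9a and Mef2c values below are given as a description with no test. The signal was lower rather than absent at nearly all of them: both KO values were 0 for G9a at 14 regions and for Mef2c at 9, and all 4 were 0 at none. With the libraries of each list scaled to the same median, 1066 of the 2893 met the rule. Mark regions often lay close by, and 1094 of the 2893 had none within 1 kb.

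The study profiled cardiomyocyte-enriched populations of C57BL/6J mice by ChIP-seq, which sequences DNA bound by a protein or carrying a histone mark. KO mice were G9a flox/flox and alphaMHC-MerCreMer +/-, and Cre mice carried alphaMHC-MerCreMer +/- alone, so both groups share the recombinase transgene. G9a, Mef2c, H3K9me2 and H3K27me3 had 2 libraries each per genotype, with 1 input library per genotype. The series text calls the replicates biological, and the p-values below measure the spread between 2 and 2 libraries. The transgene is under control of the Myh6 (alpha myosin heavy chain) promoter, which is active in cardiomyocytes, and any other cells in the preparation keep G9a. The sources used here do not give age, sex, tamoxifen dose or time after induction. The cell type cannot be checked by expression in these data, and a smaller number of bound cells cannot be told apart from less binding per cell.

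G9a, encoded by Ehmt2, is a methyltransferase of histone H3 lysine 9 that works as a pair with the related enzyme GLP, encoded by Ehmt1. The resulting H3K9me2 is a mark of silent chromatin, and H3K27me3 is the separate silencing mark written by Polycomb repressive complex 2. Mef2c is a transcription factor of the MEF2 family that binds A/T-rich sites and drives muscle genes in the heart, where its activity is held down by class IIa histone deacetylases. G9a is brought to its sites by partner proteins that bind DNA.

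Few of the regions lay at gene starts, and 6 of those starts are shown because they place the lower signal next to a named gene, among them Mef2c itself. Each line holds the 250 bases before the start of the gene, 5' to 3' on the strand of the gene, from RefSeq (GRCm38.p6). Capitals mark bases inside the G9a region and lower case those outside it.
Mef2c (chr13:83503784-83504033, plus strand): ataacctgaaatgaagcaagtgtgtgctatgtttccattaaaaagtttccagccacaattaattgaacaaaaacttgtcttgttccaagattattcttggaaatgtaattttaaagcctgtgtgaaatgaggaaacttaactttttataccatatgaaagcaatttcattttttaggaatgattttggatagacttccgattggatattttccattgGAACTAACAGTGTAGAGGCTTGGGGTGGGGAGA
Foxp1 (chr6:99028299-99028548, minus strand): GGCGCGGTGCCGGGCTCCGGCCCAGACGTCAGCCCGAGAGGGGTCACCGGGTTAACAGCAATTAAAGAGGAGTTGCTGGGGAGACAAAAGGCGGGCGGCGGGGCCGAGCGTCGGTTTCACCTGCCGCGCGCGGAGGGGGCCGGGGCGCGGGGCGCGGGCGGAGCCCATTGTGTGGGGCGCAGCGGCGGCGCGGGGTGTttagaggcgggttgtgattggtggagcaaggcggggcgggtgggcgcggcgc
Slit2 (chr5:47982905-47983154, plus strand): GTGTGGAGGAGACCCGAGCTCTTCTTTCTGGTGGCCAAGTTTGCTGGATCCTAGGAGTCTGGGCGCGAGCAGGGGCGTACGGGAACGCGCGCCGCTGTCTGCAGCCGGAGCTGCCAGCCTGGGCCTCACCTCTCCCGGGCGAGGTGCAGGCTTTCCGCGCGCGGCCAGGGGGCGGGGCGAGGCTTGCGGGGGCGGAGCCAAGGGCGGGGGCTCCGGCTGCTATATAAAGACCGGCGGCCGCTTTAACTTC
Irf1 (chr11:53770223-53770472, plus strand): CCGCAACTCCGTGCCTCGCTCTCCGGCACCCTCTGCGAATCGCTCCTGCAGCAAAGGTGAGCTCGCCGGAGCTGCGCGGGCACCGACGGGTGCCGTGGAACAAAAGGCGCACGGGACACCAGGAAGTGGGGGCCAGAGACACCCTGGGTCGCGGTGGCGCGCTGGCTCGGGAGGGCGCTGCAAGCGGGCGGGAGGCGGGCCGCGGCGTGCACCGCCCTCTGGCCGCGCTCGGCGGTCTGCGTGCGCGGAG
Cd274 (chr19:29367188-29367437, plus strand): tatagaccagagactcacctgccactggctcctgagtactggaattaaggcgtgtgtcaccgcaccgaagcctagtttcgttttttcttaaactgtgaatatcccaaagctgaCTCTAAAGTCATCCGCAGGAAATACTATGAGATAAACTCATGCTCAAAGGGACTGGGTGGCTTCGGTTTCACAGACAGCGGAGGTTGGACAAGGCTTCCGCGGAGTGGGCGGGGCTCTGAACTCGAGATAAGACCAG
Samhd1 (chr2:157135097-157135346, minus strand): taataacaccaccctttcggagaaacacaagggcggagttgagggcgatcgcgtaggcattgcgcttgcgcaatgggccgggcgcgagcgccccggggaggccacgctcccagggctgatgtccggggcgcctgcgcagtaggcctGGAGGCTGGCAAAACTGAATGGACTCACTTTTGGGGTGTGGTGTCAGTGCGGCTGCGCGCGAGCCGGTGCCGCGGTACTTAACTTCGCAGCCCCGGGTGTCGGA

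At Mef2c the G9a region covered only the last 33 of these bases and ran on into the gene. The same region covered 151 of the 250 bases before the start of Gm33317, a gene on the minus strand. At Slit2 and Irf1 the region covered all 250 bases, and at Foxp1, Cd274 and Samhd1 it covered 198, 137 and 104. The windows differed in base composition, with a G+C share of 33.6% at Mef2c, 50.4% at Cd274, 65.6% at Samhd1, 69.6% at Slit2, 74% at Foxp1 and 74.4% at Irf1. Over the 39 gene starts touched by one of the regions, the median G+C share was 52%, against 52.4% over all 31396 starts in the table. Both strands of each window were searched for the MEF2 consensus and for 4 other motifs. These were AGATAA, which Gata4 and its relatives bind, CANNTG, the E-box of helix-loop-helix factors, GGGCGG, which Sp1 binds, and TGACGTCA, the cyclic AMP response element. Matches of the motifs with each other were not removed. The MEF2 consensus was found in 0 of the 39 windows, against 2.83% of all starts and 1.57% of the 381 starts touched by any mark-free pair. AGATAA was found in 10.3% of the 39 windows and 9.94% of all, CANNTG in 69.2% and 66.1%, and GGGCGG in 38.5% and 33%. TGACGTCA was found in 0 of the 39 and in 1.58% of all. These are letters within a window and say nothing of whether a factor was bound there. At some starts, such as Tsks and Gm15462, the whole window lay outside the region, so the motif shares do not describe the regions themselves.

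Mef2c was the gene of direct interest among these starts, since its own protein was one of the signals measured. The G9a region at its start (chr13:83504001-83504600) had G9a values of 131 and 98 in the Cre libraries against 22 and 68 in the KO libraries in the authors' deposited list. The overlapping Mef2c region had Mef2c values of 106 and 96 in the Cre libraries against 20 and 51 in the KO libraries in the other deposited list. The log2 ratios were -1.33 for G9a, with a standard error of 0.89 by limma, and -1.48 for Mef2c, with a standard error of 0.88. Here and below, the standard errors belong to the difference between mean log2 values, which is not the log2 ratio of means. The first KO library was the lower one in both lists, and the groups did not overlap. The nearest H3K9me2 region lay 2550 bp away with values of 106 and 109 in the Cre libraries against 26 and 66 in the KO libraries, while the nearest H3K27me3 region lay 35750 bp away. This region no longer met the rule when libraries were scaled to the same median or when the first KO library was left out. Here and below, a library left out of the rule was left out at that position in both lists at once. The columns carry no replicate numbers, so libraries at the same position may not be the same replicate. No region was assigned to Ehmt2, Ehmt1, Mef2a, Mef2b, Mef2d, Myh6 or Myh7.

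Cre signal per kb at gene starts was divided by the median of its list, and the smaller of the G9a and Mef2c values was ranked. It was highest at Slit2, which encodes a secreted ligand of Robo receptors. For G9a alone, Gm30733 (1.443) and Gm46768 (1.374) lay above Slit2 (1.370). The Slit2 region (chr5:47982601-47983500) had deposited G9a values of 190 and 231 in the Cre libraries against 69 and 15 in the KO libraries, a log2 ratio of -2.30. Its deposited Mef2c values were 181 and 287 in the Cre libraries against 89 and 21 in the KO libraries, a log2 ratio of -2.07. The second KO library was the lower in both lists, and Slit2 met the rule under scaling and with each library left out in turn.

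Irf1, an interferon-responsive transcription factor, had a region at chr11:53770051-53771250. The authors' deposited G9a values there were 293 and 244 in the Cre libraries against 46 and 57 in the KO libraries, a log2 ratio of -2.36 with a standard error of 0.61. For Mef2c the deposited values were 231 and 155 in the Cre libraries against 4 and 121 in the KO libraries, a log2 ratio of -1.61, with KO libraries far apart (standard error 1.27). Irf1 no longer met the rule without the first KO library.

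Hace1 encodes a ubiquitin ligase that acts on the GTPase Rac1. Deposited G9a values at its start were 237 and 388 in the Cre libraries against 106 and 1 in the KO libraries, and Mef2c values were 229 and 206 in the Cre libraries against 110 and 45 in the KO libraries. The log2 ratio of G9a means was -2.52. The limma difference, a different estimate, had a standard error of 1.68, with 1 KO value of 1. Hace1 no longer met the rule without the second KO library. Arf5, a small GTPase of membrane traffic, had KO libraries close to each other, with deposited G9a values of 192 and 378 in the Cre libraries against 98 and 94 in the KO libraries. Its Mef2c values in the deposited list were 113 and 189 in the Cre libraries against 74 and 44 in the KO libraries. Arf5 no longer met the rule without the second Cre library.

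Foxp1, a forkhead transcription factor that represses transcription, had a short region at chr6:99028351-99028750. Its Cre signal per kb, divided by the median of each list, was 1.09 for G9a and 1.37 for Mef2c. Its deposited G9a values were 81 and 68 in the Cre libraries against 22 and 31 in the KO libraries, and its Mef2c values were 84 and 99 in the Cre libraries against 49 and 30 in the KO libraries. Foxp1 did not meet the rule under scaling or without the second KO library. Cd274 encodes the immune checkpoint ligand PD-L1. There the deposited G9a values were 94 and 57 in the Cre libraries against 21 and 33 in the KO libraries, and the Mef2c values were 172 and 88 in the Cre libraries against 18 and 18 in the KO libraries. Cd274 met the rule under scaling and with each library left out. Samhd1, which encodes a dNTP-degrading enzyme, had deposited G9a values of 85 and 64 in the Cre libraries against 14 and 38 in the KO libraries. Its Mef2c values in the deposited list were 126 and 113 in the Cre libraries against 15 and 25 in the KO libraries, and it did not meet the rule without the first KO library. The other starts among the 10 with the highest relative Cre signal were those of Gm46768, Gm30733, Olfr288, Saa4, Gm15462 (the region lies within Lrrc31), Rasgrf2 and Gm38424 (within Rbks), with G9a log2 ratios from -2.74 at Gm38424 to -1.04 at Gm30733.

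**Figure D1:**
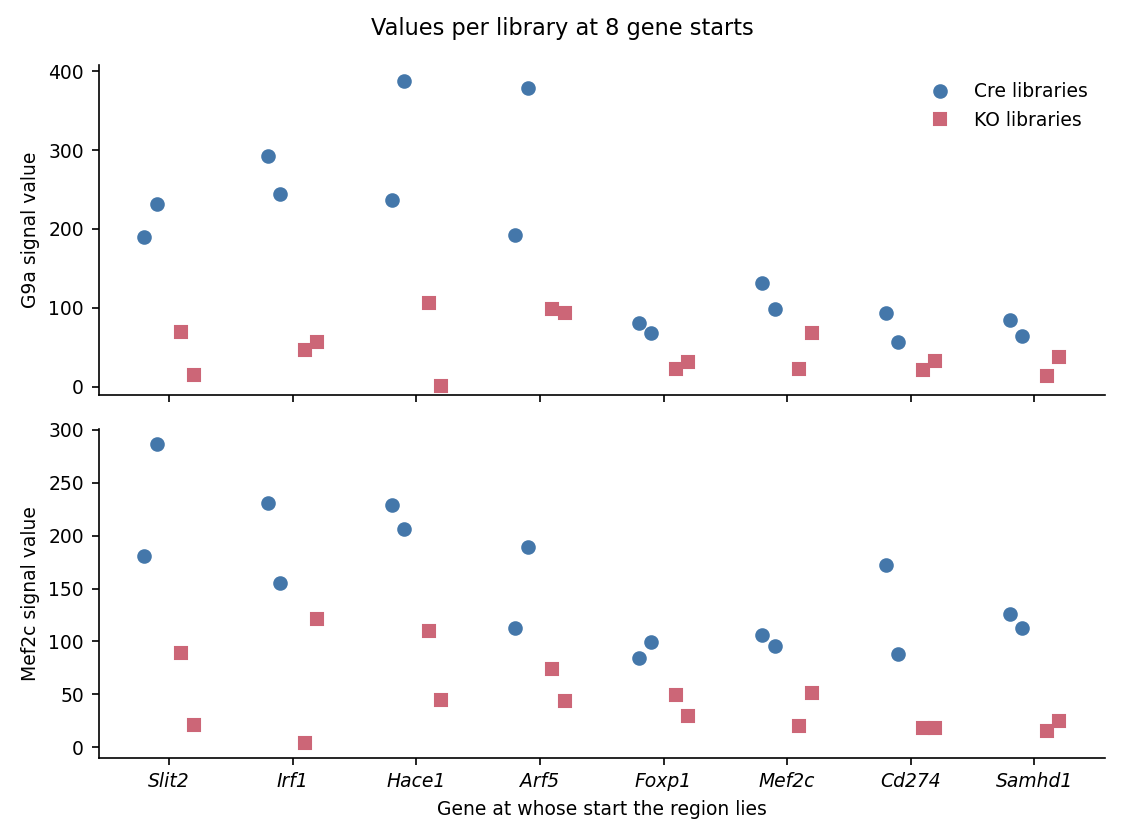
Deposited signal values (y axis, linear) of G9a (upper panel) and Mef2c (lower panel) in the regions at 8 gene starts (x axis), with Cre libraries as circles and KO libraries as squares. All KO values lie below all Cre values, as the choice of regions requires. The KO libraries lie far apart for Hace1 in G9a (106 and 1) and for Irf1 in Mef2c (4 and 121), and close together for Arf5 in G9a (98 and 94).

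Over all 2893 regions, Cre values were alike in the paired lists and KO values varied more. The median G9a value was 125 and 119 in the Cre libraries and 44 and 29 in the KO libraries, as deposited. The median Mef2c value was 126 and 120 in the Cre libraries against 36 and 41 in the KO libraries. Over the whole G9a list these medians were 104, 97, 86 and 75, and over the whole Mef2c list 93, 89, 69 and 76, in the same order. The regions thus had Cre values above and KO values below those of the lists they came from. Per kb of region, median Cre signal was 202 for G9a and 199 for Mef2c, against 171 and 167 over the lists. Median KO signal per kb was 67 and 68.3, against 112 and 106. The rule favours such values.

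**Figure D2:**
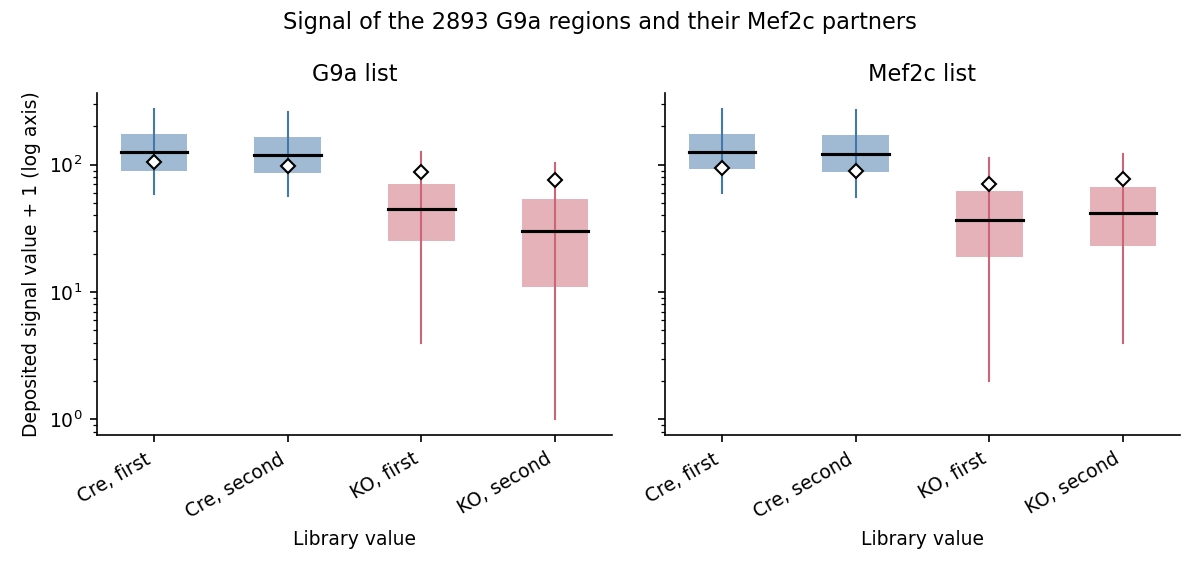
Deposited signal value plus 1 (log axis) for each library over the 2893 regions, in the G9a list (left) and the Mef2c list (right). Boxes span the 25th to 75th percentile, lines the 5th to 95th, black bars are medians, and diamonds are the medians of the whole list. Cre medians lie above and KO medians below the diamonds, with the longest low tail in the second KO library of G9a.

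The KO libraries differed from each other more than the Cre libraries did. The median SD of the 2 values on the log2 scale was 0.30 in Cre and 1.05 in KO for G9a, and 0.33 in Cre and 0.85 in KO for Mef2c. A G9a value of 0 was listed at 88 regions in the first KO library and 306 in the second, and a Mef2c value of 0 at 139 and 82. No Cre value was 0. The choice of regions with low KO values bears on this spread. The second KO value was the lower one at 63.5% of regions for G9a and 45% for Mef2c.

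The median log2 ratio of KO to Cre was -1.54 for G9a (range -7.44 to -1) and -1.49 for Mef2c (range -6.93 to -1). The median over all listed regions was -0.73 for G9a and -0.75 for Mef2c. The rule set the upper end of -1. A log2 ratio of -2 or less was reached at 743 regions for G9a, at 618 for Mef2c and at 180 for both, and -3 or less for both at 23. The G9a ratio was the lower one at 53.1% of regions, and the ratios lay within 0.5 of each other at 53.2%. Across the 2893 regions, Spearman's rho between the G9a and Mef2c log2 ratios was 0.061, a description over regions that share libraries of the same genotypes. The rule truncated both ratios at -1. For Cre signal per kb, rho was 0.139, and the ratio of Mef2c to G9a Cre signal per kb was within 1.5 times in 99% of regions. That share was not computed for the other pairs, so it cannot be read as particular to these regions.

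The G9a part of the rule alone held at 27.2% of the G9a list, the Mef2c part alone at 29.3% of the Mef2c list, and both at 10.6% of the 27190 mark-free pairs, where the G9a part held at 28% and the Mef2c part at 28.9%. Among pairs that overlap a mark region, 11.4% met both. Nothing can be read from these shares about the chosen regions, since they are the rule itself. The reverse, with both signals higher in KO by the same margins, was met by 880 mark-free pairs (3.24%). Opposite directions were met by 585 pairs with lower G9a and higher Mef2c, and by 544 with higher G9a and lower Mef2c. By the listed directions alone, 44.4% of the mark-free pairs were lower for both, 21.4% higher for both, and 17.1% went each of the opposite ways. This split depended on the scale of the libraries. With the 4 libraries of each list scaled to the same median, after which the median log2 ratio over a whole list went from -0.73 to -0.42 for G9a and from -0.75 to -0.43 for Mef2c, 1066 pairs were lower for both and 2841 were higher for both. The lower share of such pairs went from 76.7% to 27.3%. Whether the libraries differ in scale or in binding cannot be told apart from these values. The sources used here do not say how the deposited values were scaled. On the scaled values, the same 2893 regions had median log2 ratios of -1.24 for G9a and -1.17 for Mef2c.

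**Figure D3:**
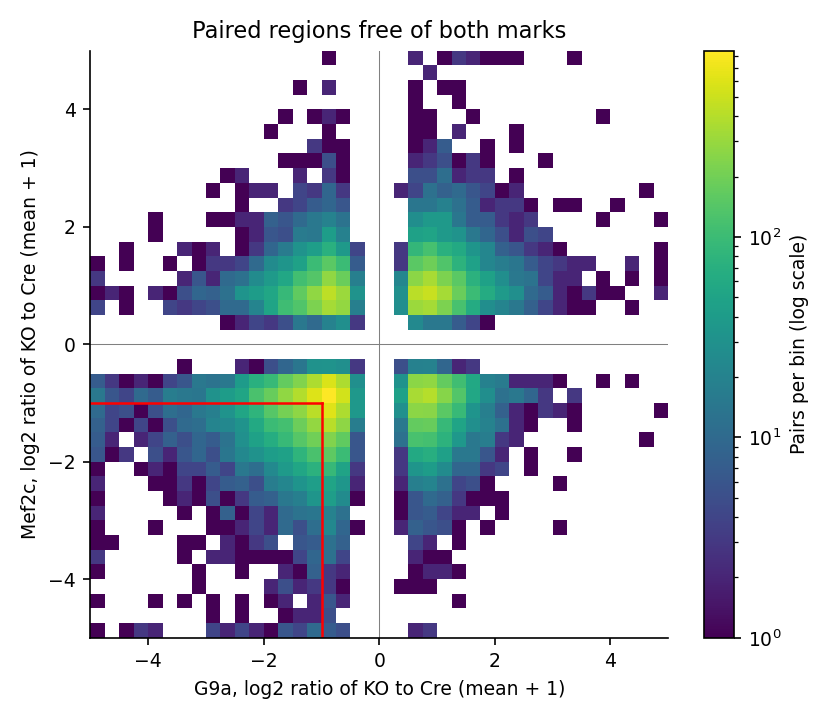
Log2 ratio of KO to Cre (mean + 1) for G9a (x axis) and Mef2c (y axis) over the 27190 mark-free pairs, coloured by the number of pairs in each bin on a log scale. Ratios beyond the axes are drawn in the outermost bins. The red lines mark a ratio of 0.5, below which the 2893 regions lie together with pairs whose KO and Cre values overlap. The empty bands around 0 come from the lists, which hold regions that differ.

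By limma (2 against 2 libraries, Benjamini-Hochberg adjustment over each list), no region of the G9a or Mef2c list passed an adjusted p of 0.05. At an unadjusted p under 0.05, 556 of the 2893 regions (19.2%) were lower for G9a, against 5.12% of the G9a list lower and 1.38% higher. For Mef2c the count was 872 (30.1%), against 8.62% of the Mef2c list lower and 2.66% higher. The rule used the same contrast, so nothing is read from these counts. The balance of directions turned with the scale of the libraries. As deposited, the unadjusted calls of the G9a list were 31830 lower and 8569 higher, and on median-scaled values 15008 lower and 25831 higher. In the Mef2c list, 46078 lower and 14214 higher calls became 20627 and 36957. On those scaled values 258 of the 2893 regions were lower for G9a and 404 for Mef2c. The median standard error was 1.00 for the G9a and 0.87 for the Mef2c difference between mean log2 values. The median log2 ratios of means, a different estimate, were -1.54 and -1.49. The smallest exact p for 2 values against 2 is 0.333. With each library position left out in turn, from both lists at once, the rule was met at 650 of the 2893 regions. Of those, 584 met it under scaling as well.

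At the edge of the rule, the G9a region at Cpa6 (a carboxypeptidase gene) had deposited values of 185 and 181 in the Cre libraries against 7 and 175 in the KO libraries, a ratio of 0.5. It was kept although 1 KO value was almost that of Cre. Tmeff2 was also just inside, with G9a values of 124 and 90 against 47 and 59 and a ratio of 0.5, as was a region outside any gene at chr1:49947501-49948300 (151 and 135 against 132 and 10). Just outside lay Adcy2, an adenylyl cyclase gene, with a Mef2c ratio of 0.501, Sox5 with a G9a ratio of 0.501, and a region at chr12:50816301-50817100 with a Mef2c ratio of 0.501. Values on both sides of the edge were thus alike.

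The lowest ratios shared by both signals were at genes of varied function. Cntnap5c, a contactin-associated protein of the neurexin family, had deposited G9a values of 247 and 138 in the Cre libraries against 11 and 0 in the KO libraries, a log2 ratio of -4.90. Its deposited Mef2c values were 151 and 179 in the Cre libraries against 11 and 3 in the KO libraries, a log2 ratio of -4.38. Both signals were thus near 0 in both KO libraries of the region at chr17:58206451-58207200.

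Zscan2, a zinc finger gene, had G9a values of 116 and 144 in the Cre libraries against 12 and 2 in the KO libraries in the deposited list, and Mef2c values of 99 and 173 against 3 and 0. Nlgn2, a neuroligin of inhibitory synapses, had G9a values of 65 and 97 in the Cre libraries against 0 and 0 in the KO libraries, and Mef2c values of 124 and 66 against 0 and 15 as deposited. The log2 ratios were -4.03 and -5.78 for Zscan2 and -6.36 and -3.50 for Nlgn2, in the order G9a and Mef2c, with standard errors from 1.65 to 5.21. Near-zero values make these ratios imprecise.

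Gsk3b, the kinase that holds back hypertrophic growth, had a region at chr16:38122901-38123500 with deposited G9a values of 132 and 164 in the Cre libraries against 27 and 6 in the KO libraries. Its Mef2c values in the deposited list were 92 and 66 against 13 and 0. The log2 ratios of Gsk3b were -3.09 and -3.42. The others of the 10 lowest shared ratios were at Cpne8, Sntn, Card19, Epha6, Mapkbp1 and Xrcc4, with G9a log2 ratios from -4.57 at Cpne8 to -2.82 at Mapkbp1. All 10 met the rule under scaling and with each library left out. They were picked for the deepest falls in the same values, which made this outcome likely beforehand.

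By the smaller of the G9a and Mef2c relative Cre signals, the highest region with a gene was at Dcdc5, a doublecortin domain gene. Cre signal per kb there, divided by the median of its list, was 1.70 for G9a and 1.71 for Mef2c. Deposited values there were 178 and 257 in the Cre libraries against 56 and 48 in the KO libraries for G9a, and 383 and 187 against 17 and 152 for Mef2c. Nkx2-4, a homeobox gene, had G9a values of 285 and 221 in the Cre libraries against 160 and 80 in the KO libraries as deposited. Its Mef2c values in that pair of lists were 251 and 368 against 69 and 126. An H3K27me3 region 150 bp from the Nkx2-4 region had values of 1748 and 1431 in the Cre libraries against 1147 and 1705 in the KO libraries, so that the genotypes overlapped for the mark. Il17rd, an inhibitor of fibroblast growth factor signalling, had deposited G9a values of 220 and 165 in the Cre libraries against 26 and 3 in the KO libraries. Its Mef2c values were 192 and 193 in the Cre libraries against 2 and 66 in the KO libraries in the deposited list. No relative Cre signal among these 10 regions exceeded the 1.71 of Dcdc5 in Mef2c. Il17rd met the rule under scaling and with each library left out, while Nkx2-4 did not under scaling and Dcdc5 did not without the first KO library. Plppr5, Fcrl6, Slc25a21, Hspa12a, Fam135b, Spata16 and Cntnap5c completed the 10.

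By number, genes with known roles in the heart held few of the regions, and their lists held few mark-free pairs. Where a count of mark-free pairs is given for a list, it is to be read against the 10.6% of all such pairs that met the rule. The shares of these lists lay on both sides of that value, on few pairs each, and were not tested. Of 24 MEF2 target muscle genes, 3 held a region: Mef2c, Ppargc1a, a coactivator of mitochondrial genes, and Hdac9, a class IIa deacetylase that binds MEF2 factors. Their 4 regions were 18.2% of 22 pairs. At Hdac9 the deposited G9a values were 146 and 52 in the Cre libraries against 4 and 51 in the KO libraries, and the Mef2c values were 107 and 166 against 15 and 62. At Ppargc1a they were 79 and 65 against 41 and 0 for G9a, and 70 and 218 against 22 and 28 for Mef2c, as deposited. Hdac9 no longer met the rule under scaling, without the first Cre library or without the first KO library, and Ppargc1a did not without the second KO library.

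The antihypertrophic list had regions at Gsk3b and Hdac9 among others, and 4 of its 24 pairs met the rule (16.7%). The list of hypertrophy and fetal genes had Gnaq alone (1 of 29 genes, 1 of 19 pairs, 5.26%), the G protein subunit that carries hypertrophic signals. Gnaq had deposited G9a values of 105 and 54 in the Cre libraries against 3 and 25 in the KO libraries, and Mef2c values of 131 and 119 against 15 and 60. Of 30 sarcomere genes 1 held a region, Nebl, which encodes the Z-disc protein nebulette, and this was 1 of 22 pairs (4.55%). Nebl (chr2:17695951-17696600) had deposited G9a values of 113 and 164 in the Cre libraries against 26 and 16 in the KO libraries and Mef2c values of 172 and 176 against 34 and 11. Its log2 ratios of -2.66 and -2.90 had standard errors of 0.94 and 0.88, and it met the rule under every one of the scaling and left-out settings.

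Fatty acid and mitochondrial metabolism had 4 of 26 genes and 5 of 25 pairs (20%). The genes were Cpt1a, the carnitine transferase that admits fatty acids to mitochondria, the nuclear receptors Esrrb and Esrrg, and Ppargc1a. Esrrg had deposited G9a values of 319 and 182 in the Cre libraries against 35 and 169 in the KO libraries, so that 1 KO library was close to Cre, and it no longer met the rule under scaling, without the first Cre library or without the first KO library. Calcium handling had Itpr1 and Itpr2, both inositol trisphosphate receptors (2 of 23 genes, 4 of 42 pairs). The Itpr1 region at chr6:108459401-108460000 had deposited G9a values of 93 and 174 in the Cre libraries against 56 and 31 in the KO libraries. Its Mef2c values in the deposited list were 179 and 218 against 35 and 6. The list of ion channels and junctions had a region at Ctnna3, a catenin of the intercalated disc. Cardiac transcription factors had Mef2c and Esrrg (2 of 26 genes, 3 of 34 pairs).

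Autophagy had Ambra1 and Atg7 (2 of 29 genes, 3 of 23 pairs), and Polycomb machinery had Eed, a core subunit of the complex, and Pcgf3 (2 of 25 genes, 2 of 9 pairs). Eed had deposited G9a values of 151 and 96 in the Cre libraries against 57 and 27 in the KO libraries and Mef2c values of 162 and 125 against 68 and 13. The nearest H3K27me3 region to it was 6650 bp away, with values of 71 and 174 in the Cre libraries against 24 and 48 in the KO libraries. No region was assigned to the 20 H3K9 methylation genes or to the 25 housekeeping genes, whose lists hold 3 and 6 pairs.

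Genes of other heart cells were counted in the same way. Of 20 endothelial genes 1 held regions (Erg, 2 of 21 pairs), of 20 fibroblast genes 3 did (Fbn1, Fn1 and Pdgfra, 3 of 18 pairs), and of 21 immune and 14 smooth muscle genes none did, with 8 pairs in each of these lists. Fbn1, the gene of fibrillin, had deposited G9a values of 180 and 125 in the Cre libraries against 51 and 26 in the KO libraries and Mef2c values of 121 and 141 against 22 and 2. The part of such cells in the signal was not tested.

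Neuronal genes, most of them very long, held more of the regions by number. Of 30 such genes 20 held 43 regions, which were 11.6% of their 370 mark-free pairs, close to the share of all pairs. Their median span was 1121 kb. Grm8, a glutamate receptor gene, had deposited G9a values of 155 and 135 in the Cre libraries against 20 and 12 in the KO libraries and Mef2c values of 157 and 99 against 11 and 47. Nrg1, which encodes the ErbB ligand neuregulin, had G9a values of 107 and 189 in the Cre libraries against 50 and 1 in the KO libraries as deposited. By single gene the most regions were in Cntn5 and Dpp10 with 6 each, then Gabrg3, Ralyl and Gpc6 with 4 each. Mark-free pairs numbered 25 in Cntn5, 27 in Dpp10, 14 in Gabrg3, 8 in Ralyl and 18 in Gpc6. Over all mark-free pairs 10.6% met the rule, and these genes were picked for holding the most regions. Per 100 kb of span the regions came to 0.472 in Cntn5, 0.396 in Dpp10, 0.596 in Gabrg3, 0.563 in Ralyl and 0.379 in Gpc6. No density over all genes is given here. Cntn5 and Dpp10 encode a neuronal adhesion molecule and a potassium channel subunit, Gabrg3 a GABA receptor subunit, Ralyl an RNA-binding protein and Gpc6 a glypican. Under scaling the rule was still met by 3 of the 6 regions of Cntn5, 2 of 6 of Dpp10, 1 of 4 of Gabrg3, 4 of 4 of Ralyl and 2 of 4 of Gpc6.

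The regions were spread over the genome. They made up between 8.79% (chromosome 19) and 12.8% (chromosome 3) of the mark-free pairs of a chromosome. The median gap between neighbours was 554 kb, and 19 neighbouring pairs lay within 5 kb. Their median width was 600 bp in the G9a list and 650 bp in the Mef2c list, and the centres of the paired regions were a median of 100 bp apart. Midpoints of 38.9% (95% Wilson interval 37.1 to 40.7) lay in the span of a protein-coding gene. This share was 42.5% (41.9 to 43.1) in the other 24297 mark-free pairs, 49.8% (46.5 to 53.1) in pairs higher for both and 35.1% in all G9a regions. A share of 30.2% lay outside genes and over 100 kb from any gene end, against 26.6% of the other pairs. Windows of 2 kb around gene ends were touched by 5.74% (4.95 to 6.65), against 7.15% (6.83 to 7.48) of the other pairs. Both shares were higher among the 1094 regions with no mark region within 1 kb, at 47.3% in gene spans and 7.59% at gene ends. Matching shares of the other pairs at that distance are not given here. Gene starts of the RefSeq table were touched by 34 of 2795 regions on the chromosomes it covers (1.22%), against 1.24% of the other pairs. The intervals cover counting error only, and these differences in share were not tested. In all, 1192 regions were assigned to 1022 genes (4.95% of 20665), of which 132 held more than 1 region. None touched a miRNA hairpin of the RefSeq table.

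Both histone marks were measured independently of the rule, apart from the demand that no mark region overlap. The nearest H3K9me2 region lay a median of 1000 bp away, as for the other pairs (1000 bp), and the nearest H3K27me3 region 2300 bp away (2400 bp for the other pairs). By the direction the authors listed, the nearest H3K9me2 region was lower at 1087 of 2893 (37.6%, 35.8 to 39.4), against 39.7% of the H3K9me2 list and 39.7% of the other pairs. Both KO values lay above both Cre values at 43.7% of these, against 40.9% of the list, and below at 23.4%, against 24.9%. The nearest H3K27me3 region was lower at 1708 (59%, 57.2 to 60.8), against 63.3% of the H3K27me3 list and 58.6% of the other pairs. Its KO values lay apart below Cre at 41.2%, against 44.5% of the list, and above at 26.5%, against 22.6%. Scaling each list to equal library medians, an alternative chosen after seeing the data, left the shares by mean values at 37.6% for H3K9me2 and 58.9% for H3K27me3. The lists hold regions selected for a difference, so scaling could turn few of the means. These unchanged shares therefore cannot show whether the directions depend on scale. It did move the shares of separated values. On that scale H3K9me2 lay apart above Cre at 31.5% and below at 29.5% of the nearest regions, against 29.8% and 31.3% of its list. H3K27me3 lay above at 33.3% and below at 29.8%, against 29.7% and 30.3% of its list.

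By limma, 0 of the nearest regions of either mark passed an adjusted p of 0.05, with 5 lower regions (0.00099%) and 1 higher region over the whole H3K27me3 list and 0 over the H3K9me2 list. At an unadjusted p under 0.05, the nearest H3K9me2 region was lower at 70 (2.42%, against 2.89% of the list) and higher at 245 (8.47%, against 8.19%). For H3K27me3 it was lower at 282 (9.75%, against 12.3%) and higher at 112 (3.87%, against 3%). Under median scaling these calls turned to 171 lower and 129 higher for H3K9me2 (5.91% and 4.46%, against 7.02% and 4.06% of the list). For H3K27me3 they became 124 lower and 228 higher (4.29% and 7.88%, against 4.89% and 7.93%). Over the whole lists, H3K9me2 went from 20682 lower and 58699 higher to 50300 and 29095, and H3K27me3 from 61884 and 15127 to 24677 and 40054. The balance of the H3K9me2 list also turned without either KO library. No direction of the marks among these calls therefore held on both scales. On either scale the shares beside the regions were near the background of each list. By the listed directions the commonest combination, at 37% of the regions, was a higher H3K9me2 and a lower H3K27me3 region, and both were lower at 22%.

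**Figure D4:**
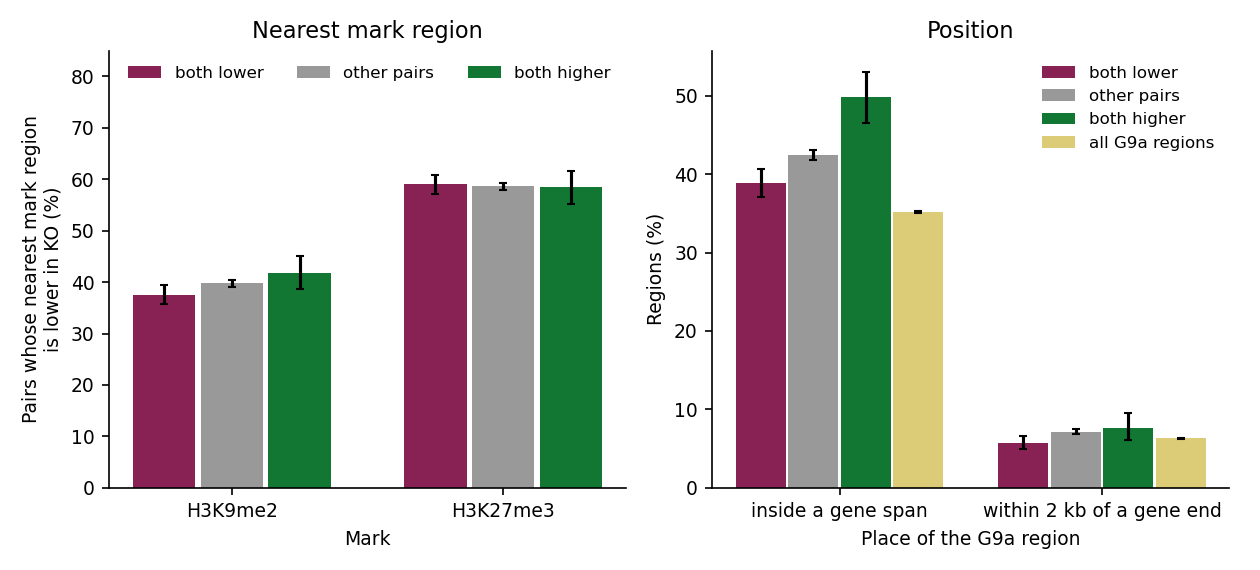
Left, percent of pairs whose nearest H3K9me2 or H3K27me3 region is lower in KO, for the 2893 regions lower for both proteins, the 24297 other mark-free pairs (which include the 880 higher for both) and those 880 alone. Right, percent of G9a regions inside a protein-coding gene span or within 2 kb of a gene end, with all listed G9a regions added. Bars start at 0 and error bars are 95% Wilson intervals. Shares at the nearest marks lie between 37.6% and 41.8% for H3K9me2 and between 58.4% and 59% for H3K27me3, and the share inside genes goes from 35.1% to 49.8%.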

How the data were processed

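BWA 0.7.10-r789, SAMtools 1.1 and build mm10 (GRCm38) are named in the submitters' processing notes. The authors deposited 1 list of regions per target, giving for every region its coordinates, the direction of change, 4 signal values (Cre first, then KO, an order read from the list's name) and a -log10 p of the authors' own comparison. The sources used here do not give the caller, the scale of the values, the normalization or the use of input. Depth is unknown. From the deposited values, log2 ratios of means were computed with a pseudocount of 1. Differences and standard errors came from limma (version 3.58.1, R version 4.3.3; trended empirical Bayes on log2(value + 1)) over each whole list, tested on simulated data. These standard errors are of the difference between mean log2 values, which is not the log2 ratio of means printed beside them. Python 3.11.15, pandas 2.3.3 and scipy 1.17.1 did the rest. Since the lists hold regions selected for a difference, the p-values of limma run too small.

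The gene of a region is the protein-coding gene whose span, widened by 2 kb, holds its midpoint. Named are the 10 regions with a gene and the highest smaller relative Cre signal, the 10 with the deepest smaller fall (mean Cre value of at least 30 in both lists), the 10 with the highest Cre signal at a gene start (the ones at named genes of known function are described, and Foxp1, Arf5, Cd274 and Samhd1 were added after their values were seen), up to 2 per gene list, those at the edge of the rule, and the 5 genes with the most regions. Of 425 names in the gene lists, 416 matched a gene on chromosomes 1 to 19. Some genes of these lists are not reported here. Promoters on chromosome 18 were not analysed here, nor was sequence outside the promoter table. The regions and gene lists were chosen with earlier results of these data known. Alternatives were the overlap, the ratio, the pseudocount, the marks, a filter on low values, a stricter -log10 p, median scaling and leaving out each library. For the rule, a library was left out at the same position in the G9a and Mef2c lists at once.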

Additional observations from a re-analysis of the deposited data

How the results depend on the processing

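The number of regions depended on many of the choices: 4563 at a reciprocal overlap of 25%, 1012 at 75%, 1260 at a ratio of at most 0.4, 5337 at 0.67, 1066 with libraries scaled to the same median, 1094 with no mark region within 1 kb and 13394 with marks allowed. It changed less with a pseudocount of 5 (2553) or 10 (2171), or with a -log10 p of at least 5 in both lists (2245). Leaving out 1 G9a and 1 Mef2c library, at the same position in both lists, gave 3779 to 4515, since fewer values then have to lie apart. The median log2 ratio then lay between -2.38 and -1.49 for G9a (-2.38 without the first KO library) and between -1.96 and -1.47 for Mef2c. The share with a lower nearest H3K9me2 region was 39.4% at 75% overlap, 46.9% with marks allowed and 37.9% to 39.6% with libraries left out in this way. For H3K27me3 it was 55.5% with no mark within 1 kb, 70.6% with marks allowed and 58.5% to 59.6% with libraries left out in this way. By limma, the adjusted count ranged from 0 to 64315 in the G9a list with 1 library left out, the latter without the first KO library, stayed at 0 in the Mef2c and H3K9me2 lists, and for H3K27me3 was 6, 2 under scaling and 0 to 2 with 1 library left out. A lone library was assumed to vary like the others, and the causes were not tested. The lower share of unadjusted limma calls, added after the data were seen, turned under median scaling in every list: from 78.8% to 36.7% for G9a, 76.4% to 35.8% for Mef2c, 26.1% to 63.4% for H3K9me2 and 80.4% to 38.1% for H3K27me3. With 1 library left out it lay between 22.5% and 88.7%, 30.4% and 91.5%, 11.2% and 73.3%, and 50.4% and 91.1%. It turned without either Cre library for G9a and Mef2c and without either KO library for H3K9me2. The lower share of pairs called the same way for both proteins likewise went from 76.7% to 27.3% under scaling. In the shares of nearest marks given first above, the direction of each mark region is the one the authors listed, and only the choice of regions changed. Recomputed without 1 library at the same 2893 regions, these were 34.1% to 39.7% for H3K9me2 and 57.6% to 61.4% for H3K27me3. No paired analysis was possible because the columns carry no replicate numbers.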

Other observations

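On the X chromosome, which the choice of regions leaves out, 7 of 65 mark-free pairs met the remaining parts of the rule.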
